A study of Mus musculus with 6 samples.

Results

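The nuclear receptors of the PPAR family (*Pparg*, *Ppara*, *Ppard*) and of their obligate partners, the RXR family (*Rxra*, *Rxrb*, *Rxrg*), were followed in 3T3-L1 adipocytes that carried either a control adenovirus or an adenovirus encoding *Lmo3*. These 6 genes were chosen by name, as the complete set of both families, and are 6 of the 24421 gene symbols in the count tables. All 6 were among the 12766 genes with enough counts to be tested. 3T3-L1 is an established mouse line of preadipocytes that turns into fat cells under a hormone cocktail. The labels give its strain as C57BL/6. Cells were differentiated with insulin (870 nM), a thiazolidinedione abbreviated TZD (5 µM), dexamethasone (Dex, 1 µM) and IBMX (500 µM), and Dex and IBMX were withdrawn on day 3. On day 7 the adipocytes were infected at 100 pfu per cell with AdLacZ, which carries the bacterial *LacZ* gene, or with Ad*Lmo3*. The methods give 3 days from infection to the experiments, while the paper's results text gives a shorter time for its check of *Lmo3* expression. The labels name 3 replicates per virus. Insulin and the thiazolidinedione, a class of drug that binds and activates PPARγ, were given to both groups for the whole of differentiation, the medium between infection and harvest is not stated separately, and no group without the drug or without a virus was sequenced here. Whether the 3 replicates were separate infections or separate differentiations is not given, so the tests measure the spread between these samples, which may be technical.

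PPARs are transcription factors that are switched on by fatty acids and their derivatives and that bind DNA as heterodimers with an RXR. PPARγ is the master regulator of fat cell formation and keeps lipid storage genes active in the mature cell. PPARα governs fatty acid oxidation in liver and other oxidative tissues, PPARδ is expressed widely and serves a related oxidative programme, and the RXRs also pair with liver X, retinoic acid, thyroid hormone and vitamin D receptors. The bound element is classically a direct repeat of AGGTCA with 1 base between the repeats, called DR1. C/EBPα and C/EBPβ, partners of PPARγ in adipogenesis, act on the *Pparg* gene itself.

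Each library held 28035639 to 38332335 counts on genes, so that 3 counts corresponded to 0.0768 to 0.111 CPM (counts scaled to a common library total). The endogenous *Lmo3* symbol had 0 counts in all 6 libraries. The virus is described in the methods as carrying a codon-optimized sequence, so this symbol could not check the labels. The adipocyte markers were abundant, with a summed level of 7316 to 7804 CPM in AdLacZ and 11386 to 14048 CPM in Ad*Lmo3*. Of these 6, 5 passed the test (83.3%, against 4.28% of all tested genes). Preadipocyte and fibroblast markers also stood high in both groups, at 15503 to 19974 CPM in AdLacZ and 15360 to 22981 CPM in Ad*Lmo3*, and 0 of 8 passed, with the collagen genes *Col3a1* (log2 fold change 0.12) and *Col1a1* (0.16) at the top. The brown fat genes *Ucp1* and *Prdm16*, the leukocyte genes *Adgre1*, *Ptprc* and *Itgam*, and 5 of 6 muscle markers were at or under 3 counts. Other members of these lists were detected. In AdLacZ, the brown fat list had mean levels of 48.3 CPM for *Cox7a1*, 32.9 for *Ppargc1a* and 8.96 for *Cidea*. The leukocyte list had 3.31 CPM for *Cd68*, 1.53 for *Lyz2* and 0.49 for *Csf1r*, and the muscle marker *Des* had 54.0 CPM. Interferon-stimulated genes, which respond to viral infection, differed widely between the Ad*Lmo3* libraries. Their 12 summed levels were 833, 1854 and 4173 CPM in Ad*Lmo3* replicates 1, 2 and 3, against 1652 to 2067 CPM in AdLacZ, and 0 of 12 passed. For the preadipocyte and the interferon list, 0 genes also passed in DESeq2 and limma voom. In edgeR 0 had an unadjusted p under 0.05, against 20.6% of all tested genes. Since 4.28% of all tested genes passed, 0 calls in lists of 8 and 12 genes do not show that these genes held their level.

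The member on which the comparison turned, *Pparg*, lies on the forward strand at chr6:115360951-115490399 of GRCm38, with 7 annotated transcripts of which 5 are coding. RefSeq promoter windows list 3 starts for it. The first and the last are 60922 bp apart. The deposited counts are one number per gene, so transcripts from these starts, which give rise to the forms known as Pparg1 and Pparg2, could not be told apart. The windows differed in base composition, since the 250 bases before the first start held 82.4% G or C and those before the last held 40.8%. Only the last of the 3 contained the C/EBP motif TTNNGCAA, and it contained it at 2 positions, -215 and -16 from the start. Of the 11 promoter windows of the 6 receptor genes (300 bases, 250 before to 50 after the start, both strands), 2 held this motif, against 10.8% of 32851 mouse promoters. The other was the second start of *Rxrg*, where it stood at -212. Both windows are shown here because they are the ones in which the motif was found. They are the 250 bases before the start on the forward strand of GRCm38.p6, chr6:115421816-115422065 and chr1:167618015-167618264, and contain no annotated exon, with the motif (or its reverse complement) in capitals.
Pparg last start: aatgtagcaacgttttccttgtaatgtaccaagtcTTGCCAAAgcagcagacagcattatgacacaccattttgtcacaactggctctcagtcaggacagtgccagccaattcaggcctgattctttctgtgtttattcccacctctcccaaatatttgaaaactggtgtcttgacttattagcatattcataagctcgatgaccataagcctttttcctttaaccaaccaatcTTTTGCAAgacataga
Rxrg second start: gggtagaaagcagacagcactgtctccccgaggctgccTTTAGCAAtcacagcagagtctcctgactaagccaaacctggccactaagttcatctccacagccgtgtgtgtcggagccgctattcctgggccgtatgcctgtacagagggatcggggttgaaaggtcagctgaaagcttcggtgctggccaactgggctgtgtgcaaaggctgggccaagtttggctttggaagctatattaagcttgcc
The full DR1 repeat was in 0 of the 11 windows and in 0.0396% of all promoters, and a single AGGTCA was in 4 of the 11 against 16.3% of all. These matches describe letters in short windows and do not show binding.

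*Pparg* was the most abundant of the 6 receptors and the only one that passed the test. Its levels were 377, 367 and 422 CPM in AdLacZ replicates 1 to 3 and 493, 534 and 604 CPM in Ad*Lmo3* replicates 1 to 3. Every Ad*Lmo3* library lay above every AdLacZ library. The mean went from 389 ± 29.2 CPM in AdLacZ to 544 ± 56.0 CPM in Ad*Lmo3* (SD, n = 3 each), a 1.40-fold difference (95% interval 1.20 to 1.63) with a log2 fold change of 0.48 ± 0.0955 (SE) and an adjusted p-value of 0.0316 in edgeR's quasi-likelihood test. Among all tested genes 4.28% passed in either direction, 2.71% as higher and 1.57% as lower in Ad*Lmo3*, and *Pparg* was number 364 by p-value. The call rested on the full set of libraries. The adjusted p was 0.0917, 0.088 and 0.0801 without AdLacZ replicate 1, 2 and 3, 0.108 without Ad*Lmo3* replicate 2 and 0.071 without Ad*Lmo3* replicate 3, whereas it was 0.0254 without Ad*Lmo3* replicate 1. The log2 fold change stayed between 0.40 and 0.55 in these 6 omissions. The summed adipocyte markers were higher in Ad*Lmo3*, as *Pparg* was, at 11386, 12894 and 14048 CPM in replicates 1, 2 and 3. Not every marker had this order of libraries, since *Cidec* had 2103, 1999 and 1974 CPM and *Lep* was highest in replicate 1 (56.5 CPM). The summed preadipocyte markers were 22981, 20914 and 15360 CPM in the same libraries, mostly from *Col3a1* (14422, 12974 and 9608 CPM) and *Col1a1* (6625, 6192 and 4259 CPM). *Dlk1* (1422, 1217 and 850 CPM) and *Pdgfra* (199, 197 and 151 CPM) had the same order. *Ly6a* (44.7, 108 and 245 CPM) ran the other way, and *Pdgfrb* (219, 174 and 205 CPM) had neither order. The interferon-stimulated genes had their highest sum in replicate 3. The part of any of these marker groups in the *Pparg* result was not tested. In such bulk RNA, fewer cells of a type and less RNA per cell cannot be told apart.

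**Figure D1:**
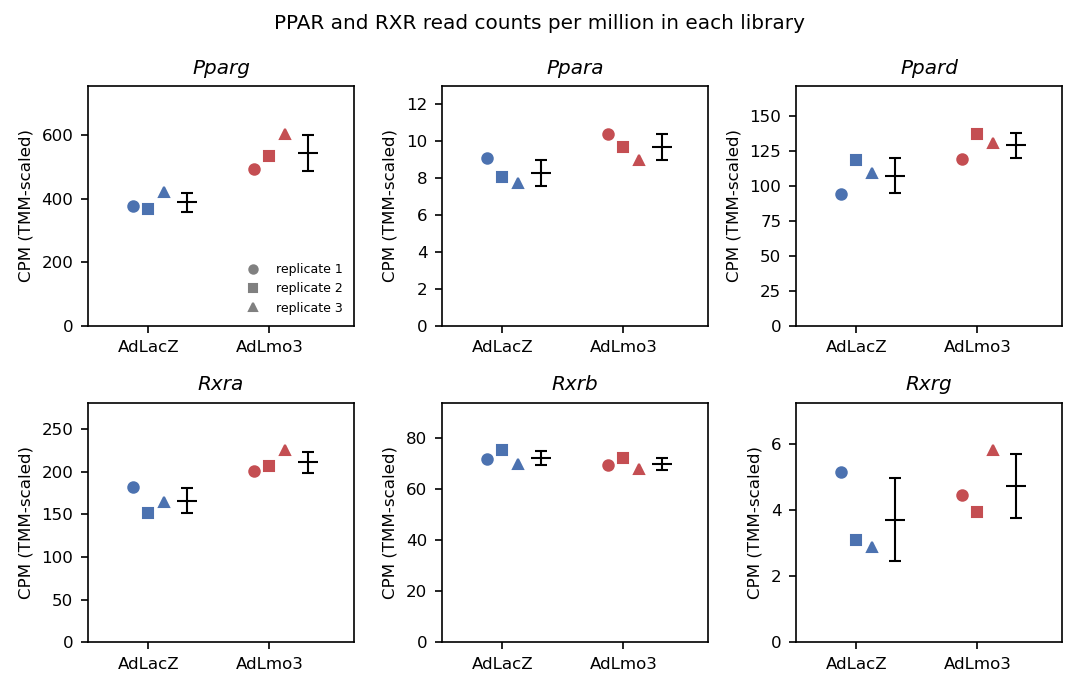
Levels of the 6 receptor genes in each library, in CPM after TMM scaling, with AdLacZ in blue, Ad*Lmo3* in red, a symbol per replicate and black bars for mean ± SD (n = 3). The groups do not overlap for *Pparg*, *Ppard* and *Rxra*, and overlap for *Ppara*, *Rxrb* and *Rxrg*.

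The other receptors of fatty acids, PPARδ and PPARα, did not pass. *Ppard* (chr17:28232700-28301474) had 94.0, 118.8 and 109 CPM in AdLacZ and 119.5, 137 and 131 CPM in Ad*Lmo3*. The groups did not overlap, although AdLacZ replicate 2 and Ad*Lmo3* replicate 1 nearly met, and the log2 fold change was 0.27 ± 0.0975 (SE, adjusted p = 0.171 in edgeR). Its 95% interval ran from 0.04 to 0.49. *Ppara* (chr15:85734983-85802819) was scarce, at 9.08, 8.09 and 7.73 CPM in AdLacZ and 10.4, 9.67 and 8.996 CPM in Ad*Lmo3*, from 243 to 385 counts per library. The lowest Ad*Lmo3* library fell below the highest AdLacZ library, the log2 fold change was 0.22 ± 0.112 (SE), and the adjusted p was 0.308 in edgeR. Its 95% interval was -0.03 to 0.48, wide enough to hold the point estimate of *Ppard*.

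Of the heterodimer partners, *Rxra* came nearest to the threshold, and *Rxrb* held nearly the same level in both groups. *Rxra* (chr2:27676440-27762957), which encodes the main RXR of adipose tissue and liver, had 182, 152 and 165 CPM in AdLacZ and 201, 207 and 225 CPM in Ad*Lmo3*. The groups did not overlap. The mean was 166 ± 15.1 CPM against 211 ± 12.3 CPM (SD, n = 3 each), and the log2 fold change of 0.34 ± 0.0851 (SE) had an adjusted p of 0.0652 in edgeR. DESeq2 gave an adjusted p of 0.00472 for it, and without a filter on low counts edgeR gave 0.049995. *Rxrb* (chr17:34031812-34038399), the widely expressed RXRβ, had 71.8, 75.0 and 69.6 CPM in AdLacZ and 69.5, 72.2 and 67.7 CPM in Ad*Lmo3*. The libraries of both groups interleaved, and the log2 fold change was -0.05 ± 0.0598 (SE, adjusted p = 0.715 in edgeR) with an interval of -0.19 to 0.09. *Rxrg* (chr1:167598384-167639623), the form typical of muscle and brain, had 98 to 184 counts per library and spread widely, at 5.17, 3.10 and 2.89 CPM in AdLacZ and 4.45, 3.94 and 5.81 CPM in Ad*Lmo3*. AdLacZ replicate 1 stood above both other controls, and the interval of the log2 fold change, -0.24 to 0.93 (adjusted p = 0.511 in edgeR), lay on both sides of 0.

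Across the family, 5 of 6 receptors were higher in Ad*Lmo3* in point estimate and 1 passed the test. At an unadjusted p under 0.05 there were 3 of 6, against 20.6% of all tested genes. Groups of libraries were separate for 3 of 6, while 26.5% of all tested genes had groups that did not overlap. None of the 6 shared a 75-base stretch of its transcripts with another gene or overlapped another gene's exons.

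**Figure D2:**
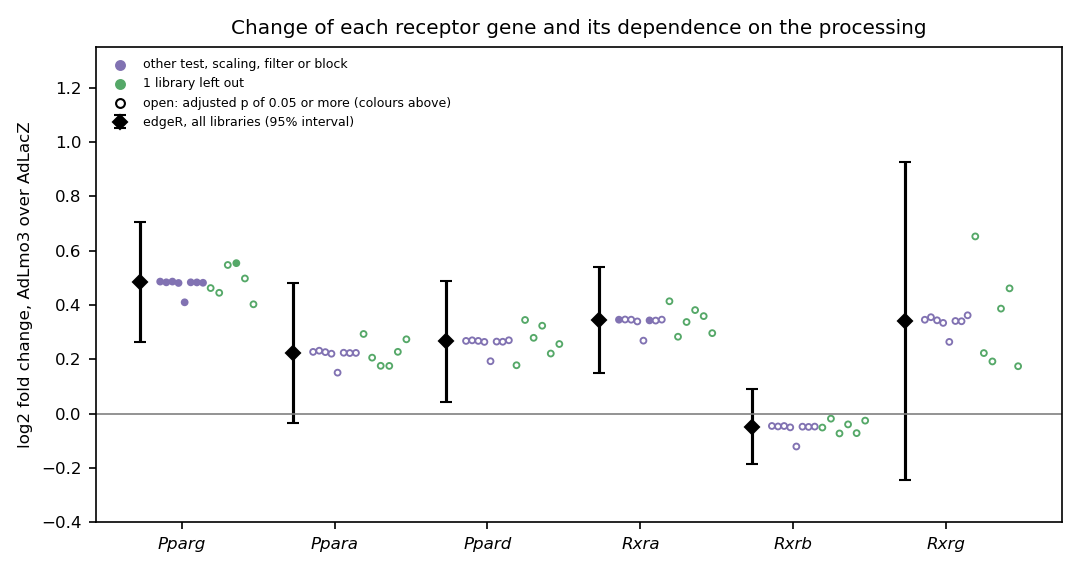
The log2 fold change of Ad*Lmo3* over AdLacZ for each receptor gene, with black diamonds and bars for edgeR on all libraries and its 95% interval, purple points for other tests, scalings, filters or the replicate block, and green points for 1 library left out. Filled points have an adjusted p under 0.05, which holds for *Pparg* in 9 of 14 alternatives, for *Rxra* in 2 of 14 and for the other 4 genes in 0 of 14.

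Levels of different genes were compared per length, as CPM per kilobase of merged coding-transcript exons. *Pparg* stood at 163.5 ± 12.3 CPM per kb in AdLacZ and 228.7 ± 23.5 in Ad*Lmo3*, 4.99 and 5.53 times the next receptor. *Ppard* (32.8 ± 3.82) and *Rxra* (32.6 ± 2.96) followed in AdLacZ with overlapping ranges. In Ad*Lmo3* they were 39.4 ± 2.72 and 41.3 ± 2.41 CPM per kb, again overlapping. *Rxrb* lay below both, at 25.0 ± 0.943 and 24.2 ± 0.785 CPM per kb, and did not overlap either of them. Then came *Ppara* at 2.35 ± 0.198 and 2.74 ± 0.198 CPM per kb and *Rxrg* at 1.62 ± 0.549 and 2.06 ± 0.421 (all SD, n = 3 each), which overlapped in AdLacZ and not in Ad*Lmo3*. Among 12293 tested genes with a known length, *Pparg* ranked 309 in AdLacZ and 205 in Ad*Lmo3*, and *Rxrg* 9768 and 9502. The place of *Ppard* depended on the length used. With the exons of all annotated transcripts, coding or not, a length chosen after the data had been seen, it stood at 14.3 CPM per kb in AdLacZ, below the 18.2 of *Rxrb*.

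**Figure D3:**
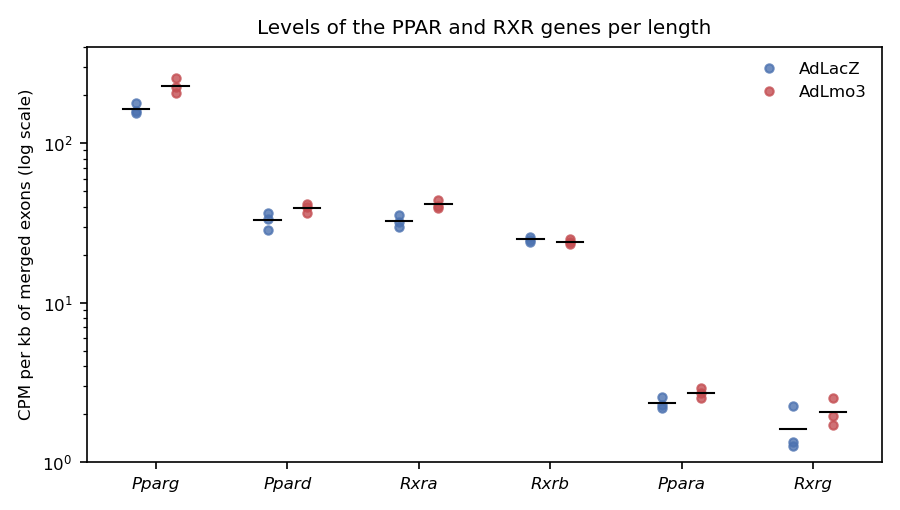
Levels of the receptor genes in CPM per kilobase of merged exons, on a log axis, for each library of AdLacZ (blue) and Ad*Lmo3* (red), with a black line at each mean. *Pparg* is above 154 in every library, *Ppard*, *Rxra* and *Rxrb* lie between 23.4 and 44.1, and *Ppara* and *Rxrg* lie under 3.

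Summed per family, PPAR transcripts outnumbered RXR transcripts in every library. The PPAR sum was 190, 193 and 213 CPM per kb in AdLacZ and 247, 269 and 297 in Ad*Lmo3*, and the RXR sum was 62.8, 57.1 and 57.6 in AdLacZ and 65.4, 67.2 and 70.0 in Ad*Lmo3*. PPAR per RXR was therefore 3.02, 3.38 and 3.70 in AdLacZ and 3.77, 4.01 and 4.24 in Ad*Lmo3*, with no overlap. The difference of means was 0.637, at the smallest two-sided p that 3 against 3 libraries allow (exact permutation p = 0.1, 0.2 after adjustment over the 6 shares and ratios compared). Without length scaling the difference was 0.297 and the groups overlapped (exact permutation p = 0.2).

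The share of *Rxra* among RXR transcripts did not overlap between the groups, whereas that of *Pparg* among PPAR transcripts did. With 3 against 3 libraries the exact permutation p cannot go below 0.1, so no share or ratio could reach the threshold of 0.05. *Rxra* made up 56.8%, 52.2% and 56.0% of RXR transcripts in AdLacZ and 60.3%, 60.3% and 62.9% in Ad*Lmo3*. All Ad*Lmo3* values were above all AdLacZ values, with a difference of 6.16 percentage points (exact permutation p = 0.1, adjusted 0.2). On the log2 scale, *Rxra* over *Rxrb* was 0.394 higher in Ad*Lmo3* (0.381 ± 0.166 against 0.775 ± 0.119, SD, n = 3 each, exact permutation p = 0.1, adjusted 0.2). *Pparg* made up 83.5%, 80.0% and 83.3% of PPAR transcripts in AdLacZ and 84.0%, 83.5% and 85.7% in Ad*Lmo3*. These overlapped, with a difference of 2.10 percentage points (exact permutation p = 0.2, adjusted 0.2). The log2 ratio of *Pparg* to *Rxra*, the pair that forms the classical adipocyte heterodimer, was 0.136 higher in Ad*Lmo3*, and that of *Pparg* to *Ppard* was 0.212 higher, both with overlapping groups (exact permutation p = 0.2 each, adjusted 0.2). A test of whether the RXR make-up changed more than the PPAR make-up was not made.

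**Figure D4:**
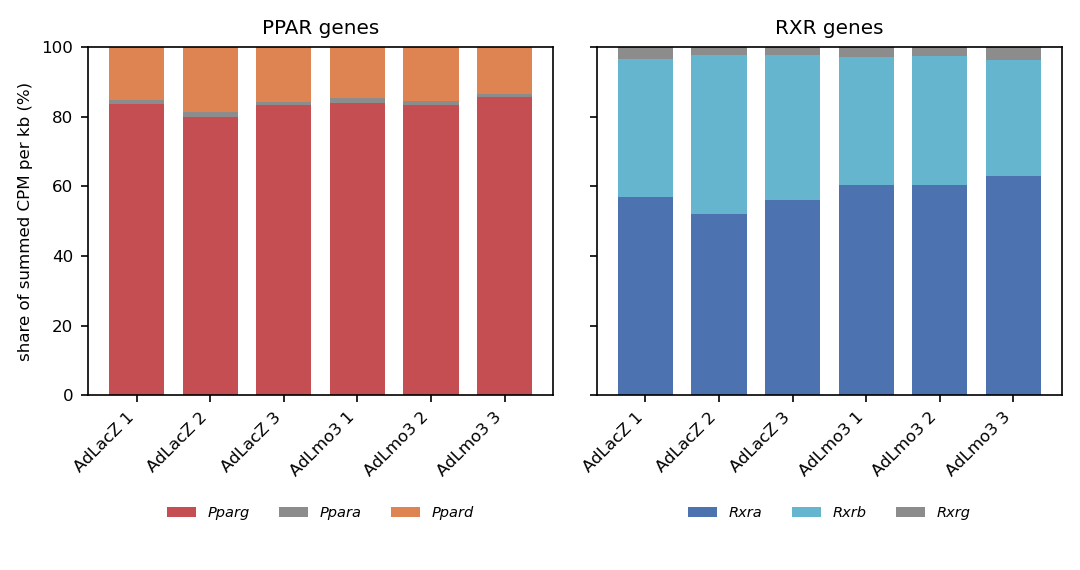
Share of each gene in the summed CPM per kb of the PPAR genes (left) and of the RXR genes (right), in percent, for each library. *Pparg* fills 80.0% to 85.7% of the PPAR bar throughout, and the *Rxra* part of the RXR bar is larger in the 3 Ad*Lmo3* libraries (60.3% to 62.9%) than in the 3 AdLacZ libraries (52.2% to 56.8%).

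Those adipocyte targets of PPARγ that passed the test all rose. Of 26 listed genes, 12 rose (46.2%, against 2.71% of all tested genes that passed as higher), 0 fell, and 14 did not pass in edgeR. This list, like the other lists here, was chosen with earlier results of these data known, so its share is a description and not an independent test. The median log2 fold change was 0.40, against 0.00 over all tested genes. *Pck1*, which encodes PEPCK for glycerol synthesis in fat, had 342, 272 and 257 CPM in AdLacZ and 606, 668 and 713 CPM in Ad*Lmo3*, a log2 fold change of 1.19 ± 0.12 (SE, adjusted p = 0.00352 in edgeR). *Scd1*, the stearoyl-CoA desaturase, was the most abundant target and rose from 18752 ± 1236 to 39981 ± 3519 CPM (SD, n = 3 each, log2 fold change 1.09, adjusted p = 0.00352). *Adipoq*, the adiponectin gene, rose from 1805 ± 86.8 to 3749 ± 680 CPM (log2 fold change 1.05, adjusted p = 0.00724). In all 3, the lowest Ad*Lmo3* library lay well above the highest AdLacZ library. Not every target took part. *Lpl* (lipoprotein lipase) had a log2 fold change of 0.23 (adjusted p = 0.294) and *Cd36* (a fatty acid transporter) of 0.10 (adjusted p = 0.794) in edgeR, and the groups overlapped for both. *Angptl4*, an inhibitor of lipoprotein lipase singled out after its values were seen, had 427, 404 and 452 CPM in AdLacZ and 345, 371 and 377 CPM in Ad*Lmo3*. Its groups did not overlap, in the direction opposite to *Pparg*, with a log2 fold change of -0.23 (adjusted p = 0.128 in edgeR). The count of 12 was 9, 7 and 4 without AdLacZ replicate 1, 2 and 3 and 6 and 10 without Ad*Lmo3* replicate 2 and 3, while *Pck1* and *Scd1* passed in all 6 omissions and *Adipoq* in 5, with an adjusted p of 0.0554 without AdLacZ replicate 3. With all libraries, DESeq2, which called 1110 genes in all, called 17 of the 26 targets, and limma voom, which called 562 in all, called 12. Groups did not overlap for 19 of the 26, against 26.5% of all tested genes. The targets and the adipocyte markers given above share 4 genes, *Adipoq*, *Fabp4*, *Plin1* and *Cidec*, so these lists are not separate observations.

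The oxidation genes that PPARα and PPARδ are known for gave calls in both directions. In the fatty acid oxidation programme of PPARα, 22 of 25 listed genes were tested, 1 rose and 2 fell (13.6%, against 4.28% of all tested genes), and the median log2 fold change was -0.02. *Fgf21*, a hormone gene induced by PPARα in fasting liver, fell from 1.74, 1.54 and 1.53 CPM in AdLacZ to 0.432, 0.217 and 0.444 CPM in Ad*Lmo3* (log2 fold change -2.15, adjusted p = 0.0102 in edgeR), with 8 to 16 counts in each Ad*Lmo3* library. *Acot2*, a mitochondrial acyl-CoA thioesterase, fell from 104 ± 3.58 to 60.6 ± 8.82 CPM (log2 fold change -0.78, adjusted p = 0.0078). *Fads2*, a fatty acid desaturase, rose by 0.42 on the log2 scale (adjusted p = 0.0405). The oxidation enzyme *Acadvl* (0.25, adjusted p = 0.145 in edgeR) did not pass. Of 8 genes responsive to PPARδ, 4 of which (*Acadvl*, *Cpt1a*, *Pdk4* and *Slc25a20*) are also in the PPARα list and 1 (*Angptl4*) in the PPARγ list, only *Ucp3*, a mitochondrial uncoupling protein, passed (12.5%, against 4.28%). It rose from 11.6 ± 0.605 to 18.3 ± 1.22 CPM (log2 fold change 0.65, adjusted p = 0.0102), *Cat* (catalase) had 0.09, and the list's median was 0.03. Without AdLacZ replicate 3, *Fgf21*, *Acot2* and *Ucp3* had adjusted p-values of 0.0558, 0.0558 and 0.0512, and *Fads2* passed only in the omission of Ad*Lmo3* replicate 1 among the 6.

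**Figure D5:**
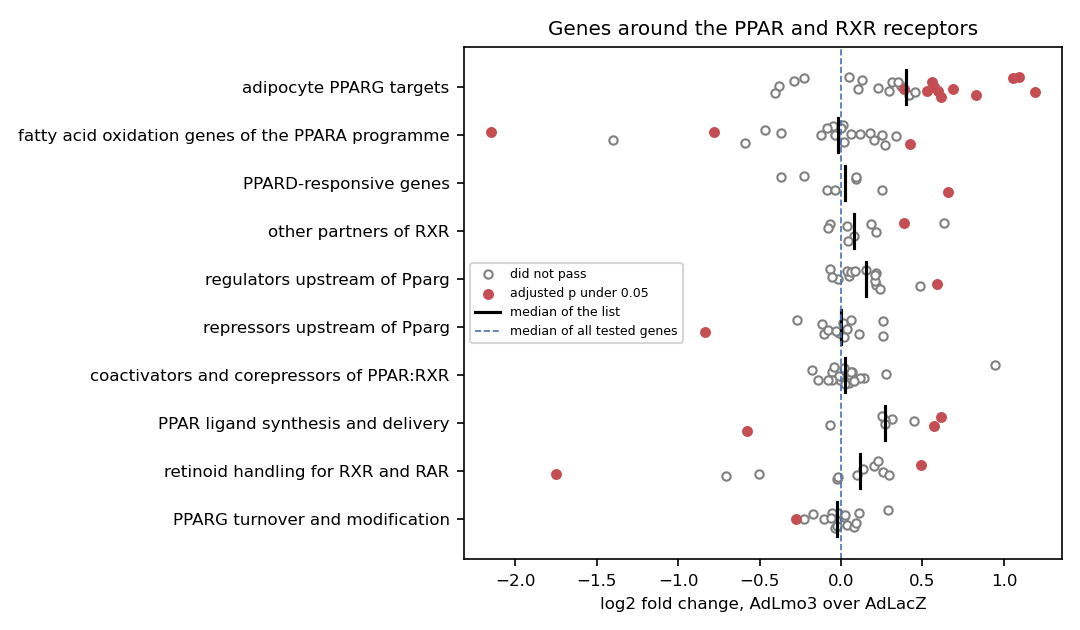
The log2 fold change of Ad*Lmo3* over AdLacZ of the tested genes in 10 lists around the receptors, with red points for an adjusted p under 0.05, open points for genes that did not pass, a black bar at each list's median and a dashed line at the median of all tested genes (0.00). The PPARγ targets hold 12 red points and a median of 0.40, and the other lists hold 0 to 3 red points each.

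Among the other receptors that pair with an RXR, 9 of 13 were tested and 1 passed, as higher (11.1%, against 4.28% of all tested genes that passed in either direction). *Nr1h3* (LXRα, a sterol sensor and itself listed as a PPARγ target) had 104, 88.6 and 100 CPM in AdLacZ and 125, 121 and 136 CPM in Ad*Lmo3*, a log2 fold change of 0.39 (adjusted p = 0.0405 in edgeR). The groups did not overlap, but the call was lost in each of the 6 omissions of a library, with adjusted p-values of 0.0589 to 0.134. *Thra* (thyroid hormone receptor α, -0.08) and *Nr1h2* (LXRβ, -0.07) did not pass, and the list's median was 0.08.

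Of the genes listed upstream of *Pparg*, only 1 activator, *Cebpa*, passed as higher and only 1 repressor, the C/EBP inhibitor *Ddit3* (CHOP), passed as lower. *Cebpa* was the 1 gene of 15 regulators that passed (6.67%, against 4.28% of all tested genes), with 232, 207 and 230 CPM in AdLacZ and 308, 360 and 337 CPM in Ad*Lmo3*, a log2 fold change of 0.59 (adjusted p = 0.0111 in edgeR, and 0.0601 without AdLacZ replicate 3). *Nr3c1*, the glucocorticoid receptor, had 0.24 (adjusted p = 0.131) and *Srebf1*, a lipogenic factor, 0.21 (adjusted p = 0.414), with a list median of 0.15. Of 14 tested repressors only *Ddit3* passed (7.14%, against 4.28%), from 263 ± 35.6 to 147 ± 37.9 CPM (log2 fold change -0.84, adjusted p = 0.0471), and it lost the call without any 1 AdLacZ library or without Ad*Lmo3* replicate 2 (adjusted p up to 0.166). The Wnt pathway genes *Ctnnb1* (-0.12) and *Tcf7l1* (0.11) did not pass. Of the 14 repressors, 7 were higher and 7 lower in Ad*Lmo3* in point estimate, with a median of 0.00.

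Of 19 tested coactivators and corepressors of the heterodimer, 0 passed in edgeR, 1 passed in DESeq2 and 0 in limma voom, with a median log2 fold change of 0.02. At an unadjusted p under 0.05 there were 4 in edgeR, against 20.6% of all tested genes, and 4 had groups that did not overlap, against 26.5% of all. *Ncor1*, a corepressor, had 0.02 and *Ncoa1*, a coactivator, 0.07. *Ppargc1b* (PGC-1β, a mitochondrial coactivator), singled out after its values were seen, had the largest point estimate at 0.94 (adjusted p = 0.061 in edgeR), while its relative *Ppargc1a* had 0.08 (adjusted p = 0.668). For turnover and modification of the PPARγ protein, 16 genes were tested and 1 passed, as lower (6.25%, against 4.28% of all tested genes that passed in either direction). This was *Mkrn1*, a ubiquitin ligase reported to act on PPARγ, at 66.1 ± 3.25 against 54.5 ± 0.212 CPM (log2 fold change -0.28, adjusted p = 0.0406 in edgeR), which lost the call in all 6 omissions, with adjusted p-values up to 0.163. *Nedd4* (0.04) did not pass.

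Genes that make or carry PPAR ligands gave 2 that rose and 1 that fell, of 9 tested (33.3%, against 4.28% of all tested genes). *Fabp4*, the adipocyte fatty acid carrier, rose from 3467 ± 235 to 5312 ± 557 CPM (log2 fold change 0.62, adjusted p = 0.0187 in edgeR) and *Pnpla2*, the ATGL lipase, from 940 ± 38.8 to 1394 ± 73.3 CPM (0.57, adjusted p = 0.00869). Both also belong to the PPARγ targets. *Pla2g4a*, the cytosolic phospholipase A2 that releases arachidonic acid, fell from 28.3, 27.2 and 33.1 CPM in AdLacZ to 17.6, 19.4 and 22.5 CPM in Ad*Lmo3* (log2 fold change -0.58, adjusted p = 0.0323). *Xdh* (0.25, adjusted p = 0.602) and *Fabp5* (0.31, adjusted p = 0.097) did not pass. *Pla2g4a* lost the call in 5 of 6 omissions of a library, all but that of Ad*Lmo3* replicate 3 (adjusted p up to 0.133), *Fabp4* without AdLacZ replicate 2 or 3 or Ad*Lmo3* replicate 2 (up to 0.0947), and *Pnpla2* without AdLacZ replicate 3 (0.0638). The list's median was 0.27, and it gave 2, 1 and 0 passing genes without AdLacZ replicate 1, 2 and 3 and 1 without Ad*Lmo3* replicate 2.

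Retinoid enzymes and carriers, which supply ligands to RXR and the retinoic acid receptors, gave 1 gene in each direction of 12 tested out of 20 (16.7%, against 4.28% of all tested genes). *Rdh11*, a retinal reductase, rose from 26.9 ± 0.233 to 37.9 ± 2.98 CPM (log2 fold change 0.49, adjusted p = 0.013 in edgeR), and it lost the call without AdLacZ replicate 3 or Ad*Lmo3* replicate 2 (adjusted p up to 0.0716). *Bco1*, the carotene-cleaving enzyme, fell from 5.24 ± 1.61 to 1.52 ± 0.739 CPM (log2 fold change -1.75, adjusted p = 0.0333), and it lost the call in 5 of 6 omissions, all but that of Ad*Lmo3* replicate 2. *Aldh1a7* (0.26, adjusted p = 0.242) and *Dhrs9* (0.29, adjusted p = 0.406) did not pass, and the median was 0.11. The retinol carrier *Rbp4* and the retinal dehydrogenase *Aldh1a2* were at or under 3 counts in these cells.

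The genes whose pattern over the 6 libraries was closest to each receptor were ranked by the root mean square difference of their centred log2 CPM, over 9147 genes with a mean of at least 10 CPM. This is a description of 6 libraries, which share their depth and any difference in cell make-up. Closest to *Pparg* were *Mtus1* (0.0251), *Sik2* (0.0451), *Car13* (0.046), *Adipor2* (an adiponectin receptor, 0.0518) and *Ece1* (0.0534). *Rxra* was at place 197 in that order (0.12), *Ppard* at 698 (0.173) and *Rxrb* at 5230 (0.298). Closest to *Rxra* were *Akt2* (a kinase of insulin signalling, 0.0317), *Arsb* (0.037) and *Cachd1* (0.0371). For *Ppard* they were *Dag1* (0.0265), *Anks1* (0.0286) and *Pfkfb4* (0.0353), and for *Rxrb* *Stoml2* (0.00944), *Mepce* (0.0204) and *Rpl15* (0.0207). *Ppara* and *Rxrg* were under the minimum level and were not ranked.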

How the data were processed

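RNA-seq libraries, 3 of AdLacZ and 3 of Ad*Lmo3*, were read in 75-base single reads, as given by the labels. The deposited values are raw counts per gene symbol, 1 table per library, made by the authors from reads aligned with STAR 2.5.0b to mm10 and analysed with DESeq2 1.6.3, per the submitters' processing notes. The counting program, its annotation and its strand setting are not given in the sources used here. Rows for reads outside genes (7.15% to 8.94% of counts) or ambiguous between genes (0.476% to 0.543%) were left out. Intervals on levels cover the spread between libraries.

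Genes were filtered by edgeR's filterByExpr, scaled by TMM and tested with edgeR 4.0.16 (quasi-likelihood test, R 4.3.3), with Benjamini-Hochberg adjustment over 12766 genes and a threshold of 0.05. DESeq2 1.42.0 and limma 3.58.1 (voom), other scalings, filters, a replicate block and the omission of each library were alternatives. The scripts were tested on simulated data. Shares and ratios were compared by two-sided exact permutation tests. Gene lengths, positions and exons came from GENCODE release M21 (GRCm38), and promoter windows from RefSeq (GRCm38.p6), which listed all 6 receptor genes. The 6 receptors, the 10 lists of pathway genes and the 6 marker lists were chosen with earlier results of these data known. Named were the 6 receptors, in each list up to 3 genes that rose, 3 that fell and the 2 most abundant that did not pass, and the nearest genes by pattern, except that some genes under this rule are not reported here. *Angptl4* and *Ppargc1b* were named after their values were seen. A comparison of the receptor proteins was planned and not run, as no protein sequences were used here.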

Additional observations from a re-analysis of the deposited data

How the results depend on the processing

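Over the 14 alternatives, *Pparg* was higher in Ad*Lmo3* in all and passed in 9, and the count of all genes past the threshold, 547, was 1110 with DESeq2 (544 shared) and 77 to 501 when 1 library was left out, lowest without AdLacZ replicate 3. DESeq2 and edgeR without a filter on low counts each called 2 of the 6 receptors, adding *Rxra* (log2 fold changes 0.35 and 0.34). With 1 library left out, 0 to 1 receptors passed, the log2 fold change of *Pparg* ranged from 0.40 to 0.55, and 4 to 20 distinct genes of the pathway lists passed, against 22 with all libraries. The 3 genes *Ncor1* (-0.057), *Ncoa1* (-0.0071) and *Nedd4* (-0.036), which had not passed, changed sign when total counts alone set the scale, which moved the median of all genes to -0.07. Leaving out 1 library gave ranges across 0 for *Ncor1* (-0.025 to 0.046), *Cd36* (-0.063 to 0.22), *Col3a1* (-0.0054 to 0.27), *Xdh* (-0.097 to 0.45) and *Nr1h2* (-0.13 to 1.9e-05), none of which had passed. The cause of these shifts was not tested.

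Same-numbered libraries had correlations of their deviations of 0.0508, 0.225 and 0.234, against -0.314 to 0.175 for differently numbered libraries. These values do not settle whether same-numbered libraries share a preparation. The labels name no pairing, so the main test took no pairs and the replicate block was an alternative. With the replicate block 498 genes passed (400 shared), *Pparg* had a log2 fold change of 0.48 (adjusted p = 0.0228), and the other receptors did not pass. The block ended the calls of *Arsb*, *Bco1*, *Ddit3*, *Fads2* and *Mkrn1* (adjusted p 0.0532 to 0.0726). The biological coefficient of variation was 0.119. *Rxrg* (98 to 184 per library) and *Ppara* (243 to 385) had few counts, and the part of depth in their precision was not tested.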
